A study of Mus musculus with 6 samples.

Results

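The regions described here are the H3K4me3 peaks of untreated mouse embryonic fibroblasts (MEFs) that lie at the starts of protein-coding genes whose RNA was high early after TNFα. A peak was a member if it lay within 1000 bases of the start of a gene that met an expression rule: a level of at least 85.6 at 1.5 hr, at least 3.5-fold over the untreated library, and an untreated level of at least 8.56. Levels are the RPKM values as deposited (read density per transcript length and library size, on a scale of the authors' own), so they were compared only within the table. The members were thus chosen by measured values, those of the untreated and 1.5 hr RNA libraries and the presence of a peak, and none of these is a finding. Of 11157 peaks, 522 were members, at the starts of 526 genes. A further 100 genes met the expression rule and had no peak within that distance, and 14 symbols that met it were not found in the annotation.

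The study asked how NF-κB signalling changes the RNA of long noncoding and coding genes. Primary wildtype MEFs of the C57BL/6x 129 background, made from embryos at day 13.5 and passaged 4 times, were left untreated or received TNFα at 20 ng/ml for 1.5, 6 or 24 hr. Each time had 1 poly(A) RNA-seq library. The H3K4me3 ChIP-seq library and its input, also 1 each, were both of untreated cells, so the peaks describe chromatin before the cytokine was added. The methods state that experiments used at least 2 independently derived MEF lines, but each library is single, so there was no replicate error and no test, and every difference below is a difference between libraries. Each RNA library is given in 2 columns, R1 and R2, of which the sources used here do not say what they are. The 2 columns were averaged and counted as 1 sample. All 526 member genes were at least 2-fold over untreated in both columns, and 467 were at least 3.5-fold in both. The rule used the mean of these same columns, so this agreement is largely set by the choice of members. It does not measure reproducibility. The largest disagreement between the 2 ratios was at Hspb11, 11.3-fold in R1 and 4.63-fold in R2. Levels could differ more than ratios. AY074887 was at 7.25 in R1 and 37.1 in R2 untreated, and at 79.1 and 559 at 1.5 hr. In R1 alone it was under both expression floors.

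Trimethylation of lysine 4 of histone H3 marks the starts of genes that are active or ready to be transcribed. In mammals most of these starts lie in CpG islands, stretches of DNA that escape methylation and keep their CG dinucleotides, where the enzymes that write the mark are recruited even at low transcription. TNFα binding to its receptor leads to degradation of the inhibitor IκBα, release of NF-κB into the nucleus, and transcription of genes for chemokines, adhesion molecules, survival factors and inhibitors of NF-κB itself. Some of these early genes have CpG-island starts, and others have starts poor in CG with a TATA box.

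κB sites are the DNA sequences that NF-κB binds. Promoters of members from the lists of NF-κB regulators and chemokines are shown first, since they are the promoters where a κB motif lies under a peak that was there before TNFα. Each run is 120 bases of mm9, read 5′ to 3′ on the strand of the gene and lying wholly before its start, with no annotated exon in it. Capitals mark matches to GGNNTTTCC or to the 10-base κB consensus, on either strand. The reverse of GGNNTTTCC reads GGAAANNCC, the motifs can overlap, and overlapping matches run together. Only the run around the match nearest the start is shown.

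Nfkbia (chr12:56593635-56593754, minus strand): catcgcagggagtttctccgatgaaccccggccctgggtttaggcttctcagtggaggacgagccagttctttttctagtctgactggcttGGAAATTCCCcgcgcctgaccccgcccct
Cxcl1 (chr5:91320146-91320265, plus strand): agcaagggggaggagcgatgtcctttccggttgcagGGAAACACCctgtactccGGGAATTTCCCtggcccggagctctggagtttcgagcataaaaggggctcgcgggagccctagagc
Relb (chr7:20214788-20214907, minus strand): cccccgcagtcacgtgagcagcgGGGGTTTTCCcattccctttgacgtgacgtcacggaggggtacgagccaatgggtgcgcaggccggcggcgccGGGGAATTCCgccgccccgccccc
Nfkbie (chr17:45692488-45692607, plus strand): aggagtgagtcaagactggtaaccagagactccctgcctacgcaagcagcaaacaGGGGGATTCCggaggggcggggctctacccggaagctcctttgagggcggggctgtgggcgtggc

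Of the 7 chemokine genes on the list that met the same expression rule and had no peak, 3 also held such a motif, and Ccl4, Ccl7, Ccl8 and Cx3cl1 held none. The promoters of those 3 are shown for contrast, and were picked after their values were seen. Their observed over expected CpG ratios, which compare the CG dinucleotides present with those its C and G content would give, were 0.13 at Ccl2, 0.18 at Ccl20 and 0.17 at Ccl5, against 0.81 at Relb, 0.71 at Nfkbia, 0.70 at Nfkbie and 0.45 at Cxcl1.

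Ccl2 (chr11:81848871-81848990, plus strand): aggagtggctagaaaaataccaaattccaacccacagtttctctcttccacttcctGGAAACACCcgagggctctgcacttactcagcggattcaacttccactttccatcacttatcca
Ccl20 (chr1:83113206-83113325, plus strand): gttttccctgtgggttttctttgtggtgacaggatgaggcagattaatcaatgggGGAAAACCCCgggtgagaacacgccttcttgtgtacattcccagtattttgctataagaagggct
Ccl5 (chr11:83344046-83344165, minus strand): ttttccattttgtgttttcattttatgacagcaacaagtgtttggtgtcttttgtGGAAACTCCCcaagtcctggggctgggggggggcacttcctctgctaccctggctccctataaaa

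Nfkbia encodes IκBα, the inhibitor that holds NF-κB in the cytoplasm. Its level was 319 before TNFα, 7211 after 1.5 hr, 2655 after 6 hr and 5772 after 24 hr, and the early ratio was 22.6-fold. Its peak at chr12:56591067-56594688 was 3622 bases long and held 985 tags, the reads of the ChIP library that MACS counted in it. The fold enrichment over the local background was 33.7, below the median of the members, and the summit lay 216 bases into the gene. The gene with the strongest early RNA among the NF-κB regulators therefore did not have the strongest peak.

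Few member genes were on a list made by role in the TNF response. The 8 lists of genes by role in the TNF response held 129 measured genes, of which 106 were over the untreated floor and 39 met the expression rule. Of these 39, 22 had a peak and were members, and 504 member genes were on no list. The lists are short, so absence from them does not show that a gene was not induced. Among all 11642 coding genes over the untreated floor, 626 met the expression rule, or 5.38%. Most members changed little beyond the threshold: 387 member genes were between 3.5-fold and 5-fold, 120 between 5-fold and 10-fold, and 19 at 10-fold or more. Just inside the threshold, with a peak, were Taf5l (55.2 untreated and 193 at 1.5 hr), Colec12 (83.8 and 294) and Rnase4 (321 and 1125). Just outside were Aimp2 (282 and 985), Clptm1l (166 and 580) and Pla2g4a (62.3 and 217).

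The 10 member genes of highest 1.5 hr level were genes of general cell machinery. Eef1a1, the translation elongation factor, was listed at 12041 untreated and 54325 at 1.5 hr, 4.51-fold. After it came Tpt1, Rpl23a (a ribosomal protein), Ubb (ubiquitin), Tuba1b, Tuba1a and Tuba1c (tubulins), Tmsb4x (thymosin, which binds actin monomers), Gnb2l1 (the ribosomal scaffold RACK1) and Pfn1 (profilin), between 3.51-fold at Tmsb4x and 5.86-fold at Tuba1c. Several of these have near-identical copies in the genome, and how reads were shared between copies is not given in the sources used here, so their levels are uncertain.

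Families were recognised by the opening letters of their symbols, so a set can also hold genes that share the letters but not the function named. They were counted after the values were seen, among the 7242 genes over both expression floors, of which 8.64% met the rule. Tubulins met it in 33.3% of 12 genes and small GTPases of the Rab family in 19.0% of 42. Proteasome subunits met it in 17.8% of 45 genes, subunits of the respiratory chain and ATP synthase in 15.9% of 82, translation initiation factors in 15.4% of 52, mitochondrial ribosomal proteins in 12.5% of 72 and cytosolic ribosomal proteins in 9.21% of 76. Most genes of each family did not meet it, and the share of the cytosolic ribosomal proteins was near that of all genes. Over all their genes above the untreated floor, the median changes of the families ran from 1.31-fold for the respiratory chain to 2.54-fold for the tubulins, with 1.97-fold for the proteasome. Coding genes over that floor that did not meet the rule had a median of 1.28-fold, close to the respiratory chain.

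The 1.5 hr library as a whole stood above the untreated one. Scaling by the median ratio over all genes gave log2 shifts of 0.44, −0.81 and 0.07 for the 1.5, 6 and 24 hr libraries. With this shift taken out, 207 genes met the rule and 161 of the 526 member genes remained, at 160 peaks. All 19 members at 10-fold or more remained, as did 17 of the 22 on role lists, and Nfkb1, Nfkbib, Ptgs2, Klf10 and Gadd45b fell under the threshold, at 3.49, 3.30, 3.03, 2.87 and 2.63-fold. Transcript composition also moved with the change. The longest annotated coding transcript of the member genes had a median length of 2103 bases and a median GC content of 46.0%, against 3096 bases and 50.8% for other genes over the untreated floor with a peak. The part of this in the choice of members was not tested.

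The fibroblast identity of the cells was clear in the RNA, and all 10 fibroblast markers were over the untreated floor, 9 of them with a peak. The 8 macrophage markers were also all over the floor, with a summed level of 3354 untreated, 16510 at 1.5 hr, 3222 at 6 hr and 8120 at 24 hr. Most of that sum was Lyz2, lysozyme, at 2257 and 14668 in the first 2 libraries, while Ptprc (CD45, on all leukocytes) was at 13.4 and 30.8 in them. Only Cd14 of these 8 had a peak. All 5 endothelial markers were under the floor, as were 5 of 6 epithelial markers. In these bulk samples a change in the number of cells of a type and a change in RNA per cell cannot be told apart.

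Member peaks were typical promoter peaks in form. Of the 526 member starts, 523 lay inside their peak, and the other 3 (Srp54c, Naa20 and Errfi1) were within 1000 bases. The summit was downstream of the start at 477, with a median of 322 bases into the gene, and the median peak reached 1059 bases upstream and 2379 downstream. Of the 522 peaks, 421 lay near the start of 1 coding gene only and 101 near those of several.

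Median length was 3576.5 bases for the 522 member peaks and 3272 for the 8853 other peaks at coding starts. Median tags were 1277 and 1100, and median fold enrichment 52.4 and 46.9. Peaks above the upper quartile of the others made up 33.0% of members for tags and 31.4% for length, and peaks below the lower quartile 12.6% and 13.2%. The direction of these differences depended on which genes were set beside the members. Against the 5926 other genes with a peak that were over both expression floors, the median length of the members' peaks was lower, at 3572.5 against 3685.5 bases, and so were the median tags, at 1277 against 1309, while fold enrichment remained higher, at 52.4 against 50.1. So the member peaks were longer and held more tags than peaks of coding starts at large, but not than those of all genes over the same floors. All other genes over both floors had a median untreated level of 222, against 75.4 for members. Between untreated levels of 25.7 and 85.6, median tags were 1190 for genes that met the rule and 1205 for the others. Between 85.6 and 257 they were 1340 and 1247.5, between 257 and 856 1514 and 1348, and from 856 upward 1825.5 and 1506.5. Median length went the same way in each of these bands.

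Among members, the number of tags tended to be higher where the untreated RNA was higher (Spearman's rho 0.33 across 526 genes) and lower where the 1.5 hr change was larger (rho −0.16). The points are genes of the same few libraries and do not stand for replicates. Among the 5926 other genes the same values were 0.14 and 0.07.

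**Figure D1:**
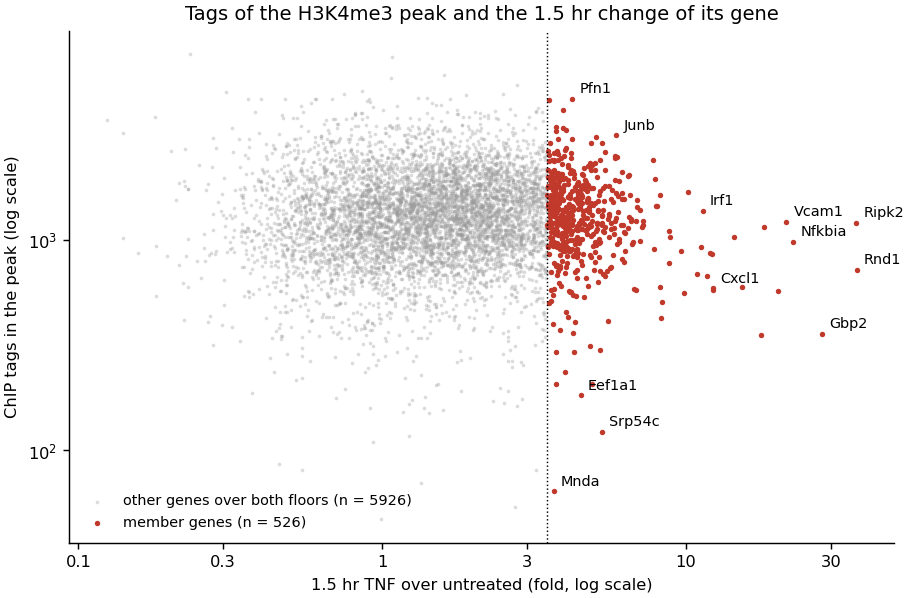
ChIP tags in the H3K4me3 peak (log scale) against the 1.5 hr over untreated ratio of its gene (log scale), for 526 member genes (red) and 5926 other genes over both expression floors with a peak (grey); the dotted line is the 3.5-fold threshold. Genes at 10-fold or more sit in the lower range of tags, with a median of 863, and the fewest tags were at Mnda.

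The longest member peak, 12229 bases with 4708 tags, was at Pfn1. Tgif1 (a homeobox repressor), Rpl23a, Hspa5 (an endoplasmic reticulum chaperone) and Cks1b (a cyclin-dependent kinase cofactor) followed, from 9230 down to 8715 bases. The shortest were at Srp54c with 399 bases, Mnda with 800, Eef1a1 with 1422, Car13 with 1523 and Ctsh with 1626. Eef1a1 thus combined the highest RNA level with 183 tags, and Srp54c with Srp54a and Srp54b are close copies of each other, where reads that map to several places may be lost. What was done with such reads is not given in the sources used here.

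Fold enrichment ranged from 20.1 to 183 among members. The highest were at 2900064A13Rik, Cwc15 (a splicing factor), M6pr (a mannose-6-phosphate receptor), Fam103a1 and Copb1 (a coat protein of Golgi vesicles), all at 158 or more. Among the lowest were Rrad, Fjx1, Gfpt2 and Srp54b, from 20.1 to 20.9. The lowest value in the whole list was 20, so weaker peaks were not in it, and a gene without a peak here is a gene without a peak of at least 20-fold enrichment.

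Peaks of the role-list members ranged from 1978 to 7357 bases. Those of Junb, Klf10, Gadd45b, Ptgs2 and Cebpb were the longest, and Tlr2 and Cxcl1 had the shortest.

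**Figure D2:**
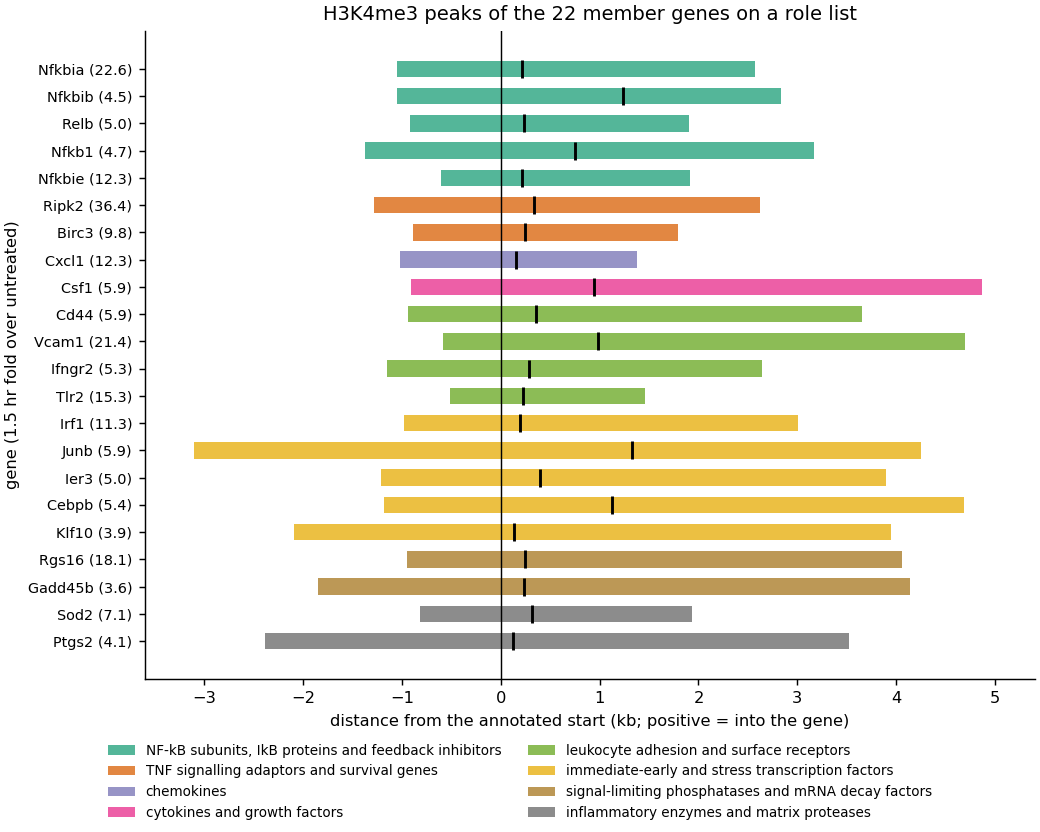
Extent of the H3K4me3 peak (bar) and its summit (black tick) relative to the annotated start, in kb with positive values into the gene, for the 22 member genes on a role list, coloured by list; the 1.5 hr fold is given with each name. The peak of Junb is the longest at 7357 bases and that of Tlr2 the shortest at 1978, and every summit shown lies downstream of the start.

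Among NF-κB subunits, IκB proteins and feedback inhibitors, 11 of 14 measured genes were over the untreated floor, 5 met the rule and all 5 had a peak. Relb, the subunit of the noncanonical pathway, was at 141, 705, 330 and 407 in the 4 libraries in order of time. It had a peak of 2824 bases and 724 tags at chr7:20212883-20215706. Nfkb1, which encodes p105/p50, was at 115, 544, 150 and 212, with 1512 tags. The IκB genes Nfkbib and Nfkbie were 4.47-fold and 12.3-fold at 1.5 hr, and their peaks held 1418 and 579 tags. Nfkbia, Nfkbie and Relb had fewer tags than Nfkb1 and Nfkbib, and the change of Relb was among the smaller ones at 4.99-fold. Tnfaip3, the ubiquitin-editing inhibitor A20, was 56.0-fold and had a peak of 1061 tags, but its untreated level of 7.13 was under the floor, and it was no member for that reason alone.

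Of TNF signalling adaptors and survival genes, 3 of the 13 over the floor met the rule. Ripk2, a kinase of innate immune signalling, was at 23.3, 846, 156 and 183, 36.4-fold at 1.5 hr, with a peak of 3901 bases and 1208 tags at chr4:16088176-16092076. Birc3, the apoptosis inhibitor cIAP2, was 9.83-fold and had 562 tags. Bcl2a1a was 7.93-fold and had no peak.

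Chemokines showed the opposite balance. Of 13 over the floor, 8 met the rule, and only Cxcl1, which attracts neutrophils, had a peak. Its level was 65.5 untreated, 802 at 1.5 hr, 337 at 6 hr and 350 at 24 hr, and its peak at chr5:91319245-91321643 was 2399 bases long with 590 tags and a fold enrichment of 68.8. Ccl2, the monocyte chemoattractant, was 97.0-fold, from 187 to 18120, and the nearest peak was 727 kb away. Ccl20, Ccl5, Ccl7 and Cx3cl1 were between 10.3-fold at Cx3cl1 and 85.3-fold at Ccl20, all without a peak, as were Ccl4 and Ccl8. By contrast, Cxcl12 and Cxcl16 had peaks and did not meet the rule, at 2.02-fold and 1.79-fold.

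Csf1, the macrophage growth factor, was the 1 member among cytokines and growth factors, at 550, 3222, 2012 and 1752 in order of time. Its peak had 5775 bases and 2518 tags. Lif, a cytokine of the interleukin-6 family, met the rule at 12.5-fold without a peak at its gene start, although it had one at another annotated start.

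Adhesion molecules and surface receptors gave 4 members from 6 genes that met the rule. Vcam1, the endothelial and stromal ligand of leukocyte integrins, was at 46.2, 988, 222 and 515, 21.4-fold at 1.5 hr, with a peak of 5279 bases and 1222 tags. Cd44, the hyaluronan receptor, and Ifngr2, a chain of the interferon-γ receptor, were 5.92-fold and 5.29-fold and had 2481 and 1209 tags. Tlr2, a receptor for bacterial lipoproteins, was 15.3-fold from an untreated level of 13.3, with 598 tags and a fold enrichment of 21.4, close to the lowest in the list. Icam1, a further integrin ligand, was 13.7-fold and its nearest peak was 11.8 kb away, and Il1rl1 was 9.30-fold without a peak at its gene start but with one at another annotated start.

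Immediate-early and stress transcription factors had peaks whether or not they met the rule. All 27 measured genes had one, and 5 met the rule. A peak was also present at 80.5% of all coding genes over the untreated floor and at 89.6% of others over both expression floors. Irf1, a factor of interferon responses, was at 114, 1289, 391 and 313, 11.3-fold at 1.5 hr, with 1381 tags. Junb, a subunit of AP-1, was 5.90-fold with 3155 tags. Ier3, Cebpb and Klf10 were 5.03, 5.42 and 3.88-fold and had 2319, 2615 and 2057 tags. The other 22 with a peak included Fos at 0.47-fold and Myc at 3.21-fold.

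Of the 18 signal-limiting genes, 16 had a peak, a share close to the 89.6% of other coding genes over both expression floors. Rgs16, which shuts off G-protein signals, was at 71.2, 1288, 413 and 903, and its peak of 5002 bases held 1153 tags. Gadd45b, a stress sensor, was 3.56-fold with 2897 tags, and Dusp10, a phosphatase of stress kinases, met the rule at 3.88-fold with a peak only at another annotated start. Of the inflammatory enzymes and matrix proteases, 7 met the rule and 2 had a peak: Ptgs2, the inducible cyclooxygenase, at 4.10-fold with 1606 tags, and Sod2, the mitochondrial superoxide dismutase, at 7.15-fold with 1158. Mmp9, Mmp10 and Mmp13, Ptges and Ch25h met it without one.

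Outside the lists, the members of largest change were Rnd1 at 36.5-fold, Gbp2 and Gbp3, guanylate-binding proteins of interferon responses, at 28.1-fold and 17.7-fold, Fas, the death receptor, at 20.1-fold, and AY074887 at 14.4-fold. Gbp2 and Gbp3 had 359 and 355 tags, and Fas had 572. Rnd1 stood at 12.2 untreated and 446 at 1.5 hr, with 722 tags. For AY074887, the R1 column alone was under both expression floors.

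A peak at the start was common in these cells: 80.5% of the 11642 coding genes over the untreated floor had one. Among genes that met the expression rule it was 526 of 626, or 84.0% (Wilson 95% interval 80.9% to 86.7%, which covers counting error only), and among the other genes over the untreated floor 80.3%. The other genes include many of low RNA at 1.5 hr. Of the 6616 that also passed the 1.5 hr floor, 89.6% had a peak. Against all other genes over the untreated floor, the order depended on the settings. Genes that met the rule had a peak in 88.9% against 78.2% at a threshold of 2-fold, but 74.3% against 80.6% at 5-fold. After scaling the libraries by the median ratio it was 77.8% against 80.6%, and by the sum 80.4% against 80.5%.

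Within the genes over both floors the share fell toward the strongest changes. It was 87.8% of 2133 genes under 1-fold, 89.8% of 1498 between 1-fold and 1.5-fold, 91.0% of 1146 between 1.5-fold and 2-fold, and 90.6% of 1839 between 2-fold and 3.5-fold. It was 88.2% of 439 genes between 3.5-fold and 5-fold, 77.4% of 155 between 5-fold and 10-fold, and 59.4% of 32 at 10-fold or more. The Wilson interval of the last share was 42.3% to 74.5%. It covers counting error only and takes the genes as independent, so it does not test the fall. Some of these genes were close neighbours: Ccl2, Ccl7 and Ccl12, at 10-fold or more without a peak, had the same nearest peak, 727, 717 and 661 kb away. Median tags of the peaks that were present were 1343 between 3.5-fold and 5-fold, 1204 between 5-fold and 10-fold, and 863 at 10-fold or more.

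**Figure D3:**
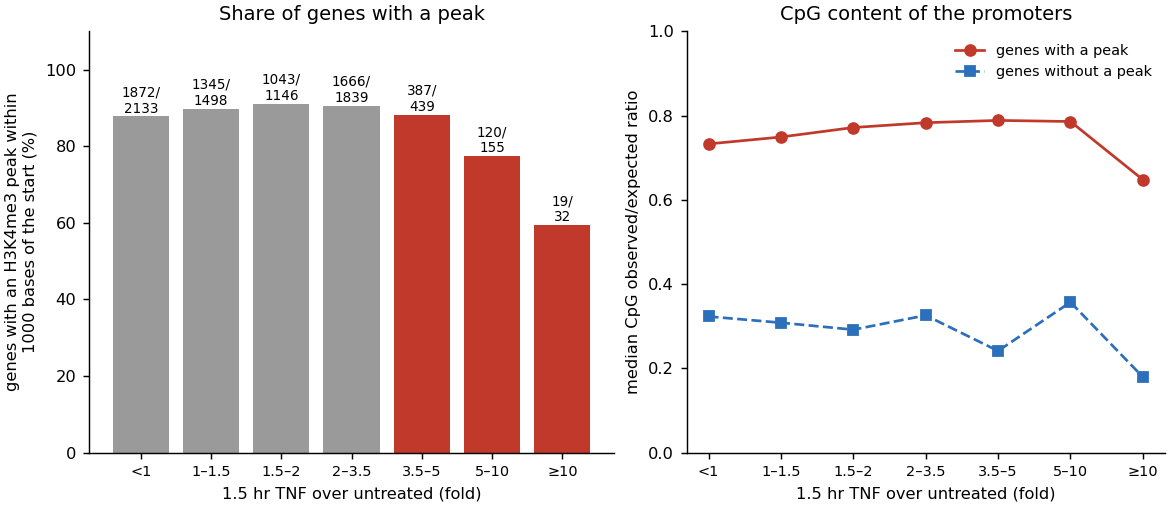
Left, percent of coding genes over both expression floors with an H3K4me3 peak within 1000 bases of the start, by 1.5 hr over untreated ratio, with the count of genes with a peak over all genes in the band; red bars are bands past the 3.5-fold threshold. Right, median observed over expected CpG ratio of the promoters in the same bands, for genes with a peak (circles) and without (squares); the share falls to 59.4% at 10-fold or more, and genes with a peak have the higher median ratio in each band.

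The untreated level also fell along these bands, from a median of 404 under 1-fold to 35.4 at 10-fold or more, so the share was set out by untreated level. Between 25.7 and 85.6, genes that met the rule had a peak in 82.5% of 286 cases and the others in 89.2% of 1189. Between 85.6 and 257 the shares were 90.1% of 152 and 89.5% of 2484. Between 257 and 856 they were 89.3% of 75 and 89.6% of 1939, and from 856 upward 87.8% of 41 and 90.1% of 1003. The 14 genes at 10-fold or more with an untreated level between 25.7 and 85.6 had a peak in 42.9% of cases, and the 13 below 25.7 in 76.9%, so the order was not regular in these small groups.

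Base composition of the starts separated genes with and without a peak more than the response did. The observed over expected CpG ratio, taken from 500 bases before to 500 after the start, had a median of 0.79 at member genes, 0.27 at the 100 genes that met the rule without a peak, and 0.76 at other genes over the untreated floor with a peak. At a ratio of 0.6 or more, a value chosen after the data were seen, 97.6% of 457 genes that met the rule had a peak, against 96.9% of 5025 others over both floors. Below 0.6 it was 47.3% of 169 against 66.6% of 1591. The low-ratio starts made up 27.0% of the genes that met the rule, 24.0% of the others, and 65.6% of the 32 genes at 10-fold or more. Thus nearly all CG-rich starts had a peak whether or not the gene met the rule, and the lower share at 10-fold or more came with a larger part of CG-poor starts.

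Among the CG-poor starts, genes that met the rule had the lower share in each band of untreated level that had both kinds of gene. It was 44.4% of 81 against 58.4% of 231 between 25.7 and 85.6. Between 85.6 and 257 it was 62.2% of 37 against 65.1% of 568, a small difference. The upper bands held few genes that met the rule: 46.7% of 15 against 67.2% of 479 between 257 and 856, and 42.9% of 7 against 74.1% of 313 from 856 upward. When any annotated start of the gene was allowed, the shares below 0.6 were 61.5% and 78.8%. Of the members, 80 had a ratio below 0.6, among them Gbp2 at 0.11, Gbp3 at 0.19 and Vcam1 at 0.28.

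**Figure D4:**
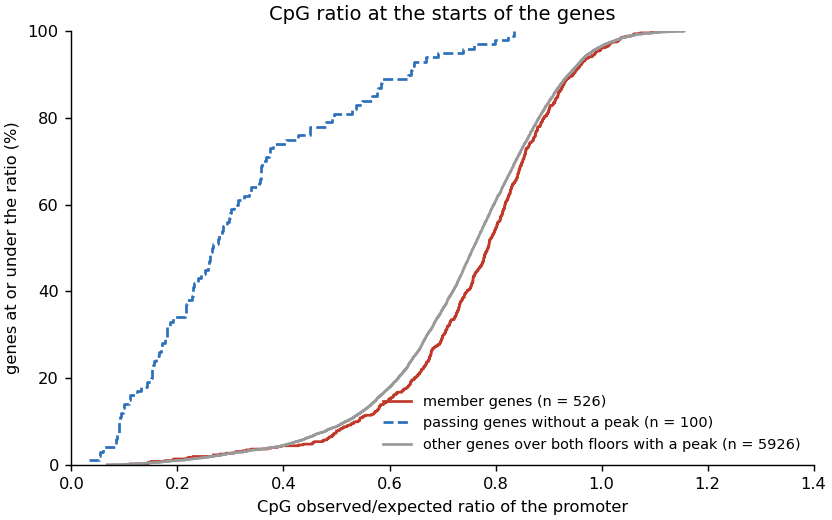
Cumulative percent of genes at or under each observed over expected CpG ratio of the promoter, for 526 member genes (red), the 100 genes that met the expression rule without a peak (blue, dashed) and 5926 other genes over both floors with a peak (grey). The member and other curves lie close together, with medians of 0.79 and 0.76, and the genes without a peak lie to the left, with a median of 0.27.

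The genes without a peak were seldom near one. The median distance from the start to the nearest peak was 53.5 kb, 7 of the 100 had a peak within 5 kb, and 87 were more than 10 kb away. The highest at 1.5 hr were Ccl2, Lyz2, Gnas, Ldha, Ccl7, Gm4987, Dynlt1a, Lyz1, Cnn1 and Ccl20. Of the 100, 27 had a peak within 1000 bases of another annotated start of the gene, among them Gnas (a G-protein subunit), Ldha (lactate dehydrogenase), Lif and Dusp10, and 73 had none. For Lyz2 and Lyz1, lysozymes of myeloid cells, the nearest peaks were 56.6 and 67.2 kb away. Lyz2 is itself 1 of the 8 macrophage markers given above and most of their summed level, so that sum is not separate from it. The part of myeloid cells in the peak calls was not tested.

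Motifs were counted in the 500 bases before the start, on both strands. GGNNTTTCC was found at 74 of 526 member genes, or 14.1% (Wilson 95% interval 11.4% to 17.3%), at 9.08% of other genes over the untreated floor with a peak, and at 9.36% of all 19720 coding genes. The 10-base κB consensus differed less between these groups, at 16.7%, 14.4% and 12.9%. Either motif was present at 25.9% of members and 21.0% of the others with a peak. At the 100 genes that met the rule without a peak, GGNNTTTCC was found at 17.0%, the 10-base consensus at 15.0% and either at 27.0%. The shares at members were thus not particular to starts with a peak. Other genes over the untreated floor without a peak held GGNNTTTCC at 10.7% and the 10-base consensus at 14.8%. At the 19 members at 10-fold or more, GGNNTTTCC was found at 4 and the 10-base consensus at 9. Both motifs were found at 26 member genes (4.94%), at 2.49% of other genes over the untreated floor with a peak and at 2.67% of all coding genes. The 26 were Nfkbia, Cxcl1, Relb, Csf1, Gadd45b, Ier3, Ifngr2, B2m and H2-K1 (the light chain and a heavy chain of MHC class I), Ndufa4, Uck2, Ndufab1, Mapk6, Arl6ip5, Grem1, Il10rb, Gnai3, 5730528L13Rik, Ero1l, Stx11, Yaf2, Rcl1, Atp6ap2, Car13, Dis3 and Ccdc41. Such a match describes the letters and does not show binding.

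The AP-1 letters TGANTCA were at 58 of 526 members (11.0%), 8.35% of others with a peak and 27.0% of genes that met the rule without a peak. They were at 2370 of all 19720 coding genes, a share slightly above that of the members. GAAANNGAA, which occurs in interferon-response elements, was at 19.0% of members, 13.4% of others with a peak and 15.1% of all. TATAAA within 50 bases of the start was at 0.95% of members and 1.04% of others with a peak, and at 8 of the 100 genes without one. GGGCGG, the letters of Sp1 sites, was at 69.2%, 67.8% and 26.0% of these 3 groups. Of all coding genes, 3.15% held TATAAA and 47.4% GGGCGG. The 2169 other genes over the untreated floor without a peak held TGANTCA at 14.0%, TATAAA at 2.77% and GGGCGG at 36.8%.

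Later libraries were set beside the early one for the members. The 6 and 24 hr ratios share the untreated library with the rule, which favours low untreated values, so they are a description and give no independent support. At 6 hr the median ratio to untreated was 1.17 for members and 0.61 for all 7242 coding genes over both floors. At least 2-fold were 45 members, or 8.56%, against 1.62% of all. At 24 hr the medians were 3.03 and 1.15, and 505 members, or 96.0%, were at least 2-fold against 18.7% of all. With the shifts between libraries taken out by the median ratio, 53.8% of the members and 8.38% of all genes were at least 2-fold at 6 hr. The low counts at 6 hr therefore depend on the scale of that library.

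Every member was lower at 6 hr than at 1.5 hr as deposited, as were 6565 of all 7242 coding genes over both floors. Members were chosen for a high 1.5 hr level, which favours such a fall. Below their untreated level at 6 hr were 146 members, or 27.8%, against 86.7% of all. None of these 146 members was at 10-fold or more: 18 of the 19 members at that change were still at least 2-fold at 6 hr, against 27 of the other 507. Among the 45 were Gbp2, Rnd1, Nfkbia, Ripk2, Csf1, Irf1, Vcam1, Cxcl1 and Sod2. At 24 hr 27 of the 526 members stood above their 1.5 hr level, while 802 of the 7242 genes were at or above theirs. The highest of these members was B2m, at 3374 untreated, 12636 at 1.5 hr, 3471 at 6 hr and 15300 at 24 hr. Igfbp7 (a secreted binding protein of insulin-like growth factors), Pabpc1 (the poly(A)-binding protein) and Glrx (glutaredoxin) were others.

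**Figure D5:**
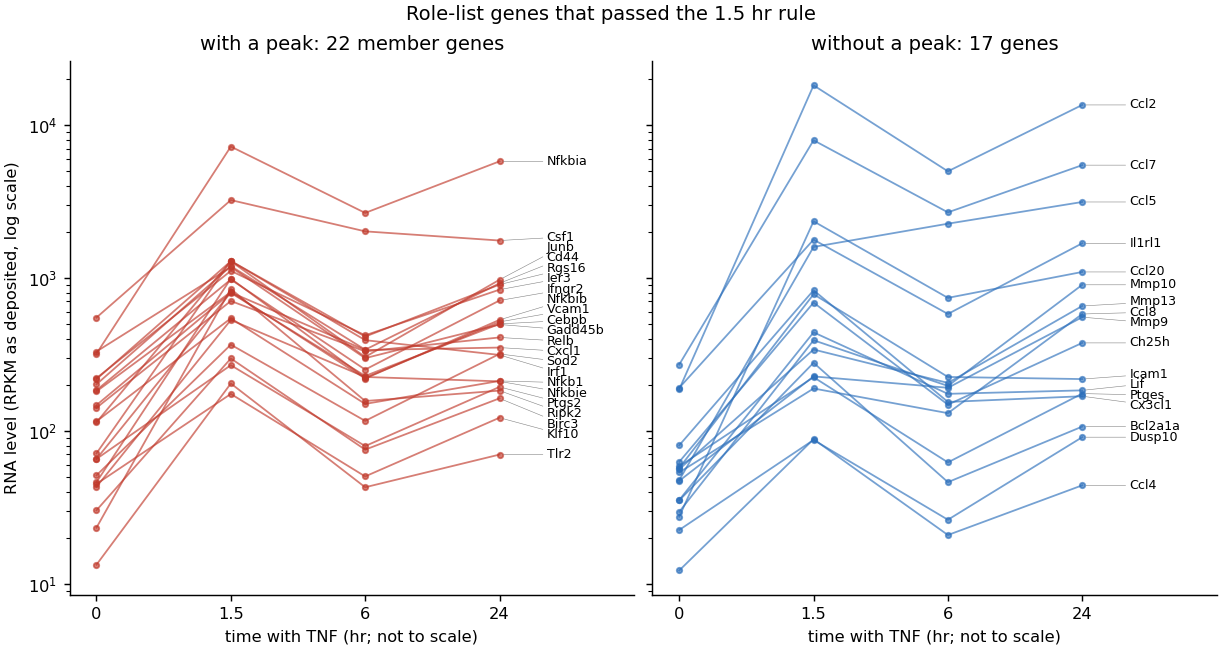
RNA level (RPKM as deposited, log scale) by hours of TNFα (0, 1.5, 6 and 24) for role-list genes that met the 1.5 hr rule, 22 with a peak (left, red) and 17 without (right, blue); each line is 1 gene and each point 1 library. The levels overlap between panels, Ccl2 and Ccl7 without a peak are the highest at 1.5 hr together with Nfkbia, and Ccl5 alone rises on from 1.5 to 6 hr.

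Member peaks also covered starts of further coding genes. At 4 peaks, 2 or more genes met the rule. Of the neighbours that did not meet it, 73 were over the untreated floor, with a median 1.5 hr ratio of 1.65 and quartiles of 1.02 and 2.17. The 8847 other genes with a peak had a median of 1.38 and quartiles of 0.86 and 2.07. At least 2-fold were 35.6% of the neighbours and 27.0% of the others. Since these neighbours were defined as genes that did not meet the rule, their values say nothing of how often neighbours change together. They ran from 0.31-fold at Dnali1 to 6.39-fold at Anapc10, which stayed under the 1.5 hr floor at 63.3.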

How the data were processed

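RNA levels are the RPKM values that the authors made per RefSeq transcript from reads mapped to mm9 with TopHat, 2 columns per library, averaged here. Where a symbol had several NM_ rows the one of highest mean was used, with no pseudocount. The columns were tied to libraries through the library names of the study's own sample list. One field of the 24 hr sample's label describes ChIP, while its other fields describe RNA-seq. ChIP reads were aligned by the authors with Bowtie, and MACS was their peak caller. The deposited list, which does not say whether libraries were pooled, gives per peak a count of tags, a log-scaled p score, a fold enrichment ratio, an FDR in percent, and tags per base, the average signal. Library totals are in the study's own sample list and not in the processed files, and were not used here.

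Starts are the 5′ ends of protein-coding genes of GENCODE M1 on mm9, and sequences and motifs come from the same build. The tools were Python 3.11.15 with pandas 2.3.3, numpy 2.4.6, scipy 1.17.1 and matplotlib 3.10.9, and the functions were tested on simulated data. Members, lists and comparisons were chosen with earlier results of these data known. The genes named were those on role lists, those at the extremes of level, change, length and enrichment, those at the threshold, those with both κB motifs, and the highest without a peak, except for 1 gene that is not reported here. A neighbour, a member off the lists or a gene higher at 24 hr was named after its values were seen. With 1 library per group no test was made. Alternatives were other distances, starts, fold thresholds, columns, scalings, peak thresholds, motifs and windows.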

Additional observations from a re-analysis of the deposited data

How the results depend on the processing

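No paired analysis was possible because each group had 1 library and no test was made. Of 112 values under alternatives, 70 stayed within 1.5 times (counts) or within the 95% interval (shares and medians) of the reported value. Member peaks numbered 2151, 872 and 138 at fold thresholds of 2, 3 and 5, and 160 and 257 after scaling by the median ratio and by the sum; the member genes were 2192, 884, 139, 161 and 259. The share of genes that met the rule with a peak was 88.3% with any transcript start, 88.9% and 74.3% at fold thresholds of 2 and 5, 77.8% and 80.4% after the 2 scalings, and 61.8% for peaks of at least 40-fold enrichment. For the other genes over the untreated floor it was 79.3% at a distance of 0, 83.2% with any start, 78.2% at a threshold of 2 and 53.2% for peaks of at least 40-fold. At a threshold of 5 it was 80.6%, and after the 2 scalings 80.6% and 80.5%, so there the genes that met the rule did not have the higher share. For genes at 10-fold or more, under alternatives chosen after seeing the data, it was 31.2% for peaks of at least 40-fold and otherwise between 52.9% and 62.5%. Median tags of member peaks were 1203 where only peaks near 1 coding gene were used, and median fold enrichment 63.5 at a minimum of 40. The compared peaks had medians of 3383 bases, 1154 tags and 48.1-fold for other genes over the untreated floor, and 3163 bases, 1034 tags and 45.2-fold for all other peaks. GGNNTTTCC was at 7.03% of members and 4.66% of others with a peak in 250 bases and at 22.1% and 16.5% in 1000, and the 10-base consensus at 14.4% of the others. Of members at 6 hr, 85.1% and 83.8% were at least 2-fold when members and ratios were both scaled by the median ratio or the sum, 21.1% at least 1.5-fold and 3.04% at least 3-fold; at 24 hr these were 100%, 99.2%, 99.6% and 51.3%. Leaving out a library was not possible, since each time has 1. The list ends at 20-fold enrichment, so weaker H3K4me3 was not measured.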
